A study of Saccharomyces cerevisiae with 28 samples.

Results

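Chaperones are proteins that help others to fold, keep them from clumping or pull clumps apart, and heat shock proteins are those whose synthesis rises when cells are heated. The 40 genes examined here encode the main chaperones of Saccharomyces cerevisiae, their partner proteins and HSF1, the heat shock transcription factor. They were taken as a fixed list of gene symbols, and a gene counted as measured if the array held a probe set annotated to it alone. This was the case for 38 of the 40, out of 5656 such genes on the array, and each of the 38 had exactly 1 such probe set. They comprised 26 genes of the cytosol, nucleus or plasma membrane (called cytosolic below), 6 of mitochondria and 6 of the endoplasmic reticulum (ER). The missing pair was SSB1 and SSB2, near-identical ribosome-bound Hsp70 chaperones, which share a probe set.

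Hsp70 proteins bind unfolded stretches of other proteins in cycles of ATP hydrolysis. J proteins start each cycle and nucleotide exchange factors end it, while Hsp90 takes over partly folded clients with the help of cochaperones. In yeast HSF1 keeps basal transcription of many of these genes going and raises it on heat, the factors Msn2 and Msn4 drive a broader stress programme, and the unfolded protein response raises chaperones of the ER.

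The study hybridised RNA from log phase yeast to 28 Affymetrix arrays, with genotyping and expression, also by allele, as the aims in its title. BYxRM hybrid diploids and 1:1 mixtures of BY and RM mRNA gave 6 arrays each. Diploid RM, diploid BY, haploid RM and haploid BY cells gave 3 arrays each. Diploid hybrids made by mating segregants of the cross, and haploid segregants, gave 2 arrays each. BY is a laboratory strain isogenic to S288C, and RM is a wild strain from a vineyard. The labels give no further alleles, mating types or marker mutations, and do not state that each replicate came from its own culture. The p-values therefore reflect only how far these arrays vary, possibly for technical reasons.

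Levels are the deposited values on the log2 scale, so that a difference of 1 is a 2-fold change. Array medians lay between 7.34 and 7.56. The mean correlation of an array with the others of its group was 0.963 or higher, except for mixture array 5 at 0.922. Mating genes were set beside the labels. SAG1, an alpha-specific gene, was at 6.56 to 7.24 in RM haploids and at 11.72 to 12.12 in BY haploids, and MFA2, an a-specific gene, was at 12.39 to 12.75 in RM haploids and at 6.37 to 7.25 in BY haploids. Neither was above 7.76 in hybrids, RM diploids or BY diploids. By these genes RM haploids were of mating type a and BY haploids of type alpha. Strain and mating type can therefore not be told apart in haploids, nor ploidy and mating type between haploids and diploids. The mixtures had SAG1 at 11.46 to 11.84 and MFA2 at 11.28 to 11.81, close to the haploid strain that expresses each, and the labels do not name the ploidy of the mixed cells. The array was designed on the reference sequence, so RM sequence differences under a probe can lower a signal, and their part in any lower RM value was not tested. In these bulk samples fewer cells of a kind and less RNA per cell cannot be told apart.

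**Figure D1:**
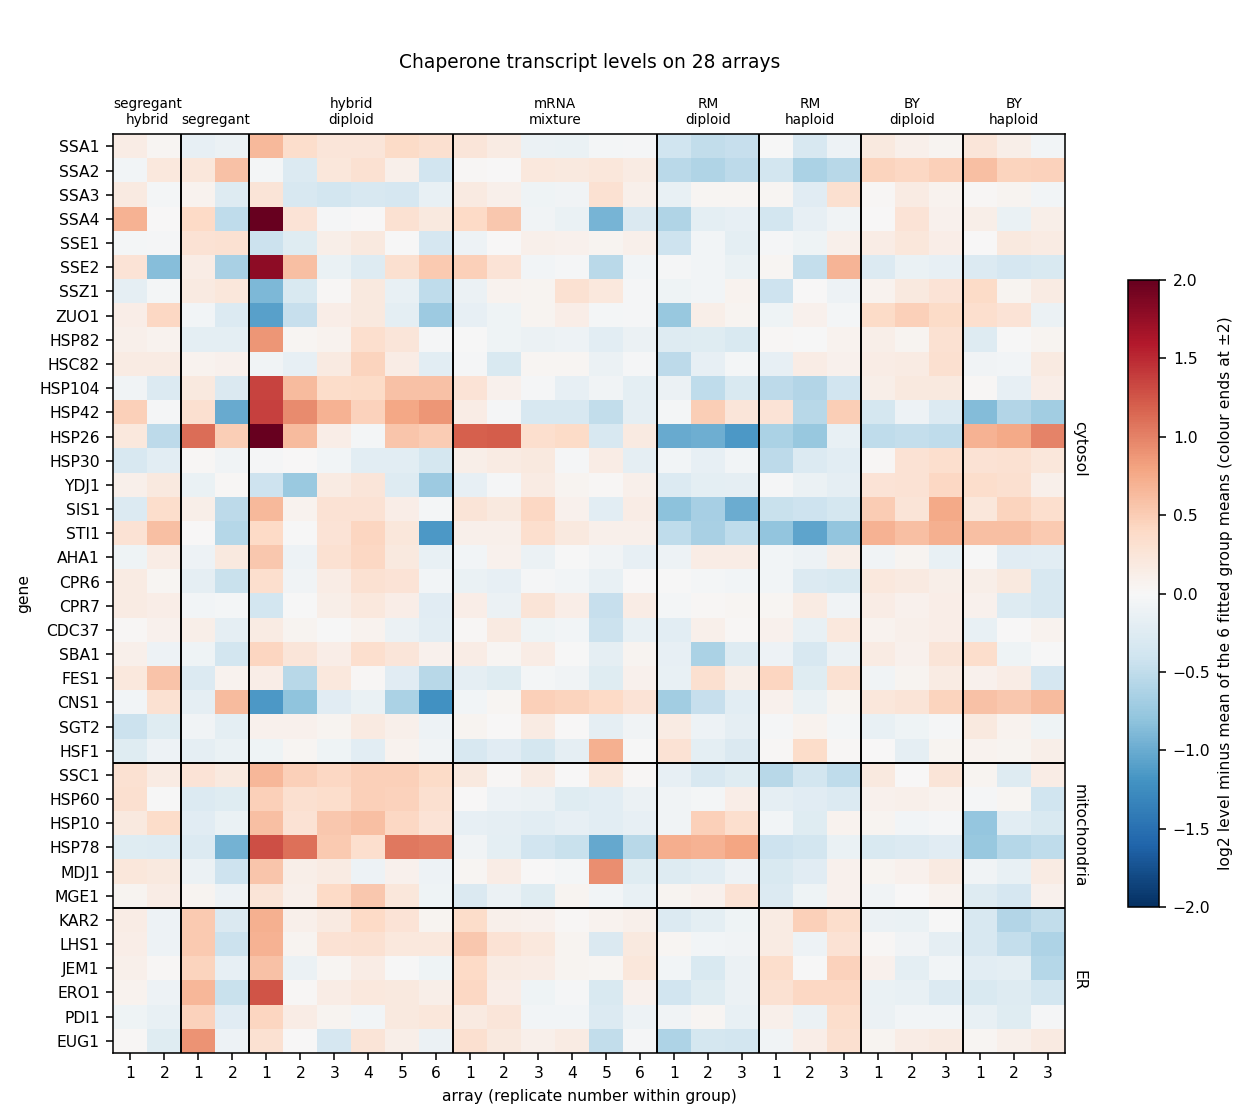
Log2 level of each of the 38 chaperone genes (rows, by compartment) on each of the 28 arrays (columns, by group and replicate number), as the difference from the mean of the 6 fitted group means. Hybrid array 1 stands out in SSA4 (9.53), HSP26 (10.17) and SSE2 (10.55), and the RM groups are below the BY groups in SSA2, SIS1 and STI1.

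The first comparison was between the haploid strains, which also differed in mating type. Among the 38 genes 5 were higher in RM haploids than in BY haploids and 6 were lower (limma, adjusted p under 0.05 over all 9274 probe sets). Over all 5656 genes 12.1% were higher and 5.23% were lower. The genes split by compartment: 4 of the 6 ER genes were higher, while 5 of the 26 cytosolic genes were lower and 1 was higher. The median difference over the 38 genes was -0.03, against 0.07 over all genes.

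The cytosolic genes lower in RM haploids were led by STI1, the cochaperone that bridges Hsp70 and Hsp90. STI1 was at 9.63, 9.36 and 9.62 in RM haploids, against 11.02, 11.02 and 10.94 in BY haploids. The groups lay far apart, with a difference of -1.46 ± 0.25 (SE, n = 3 arrays each, limma adjusted p = 0.000118). SSA2, a cytosolic Hsp70 made without stress, was at 13.23, 12.97 and 13.05 in RM haploids, against 14.20, 14.04 and 14.06 in BY haploids. Its difference was -1.02 ± 0.14 (adjusted p = 6.4e-06), and again no array overlapped. SIS1, an essential J protein, was at 9.70, 9.73 and 9.80 in RM haploids, against 10.38, 10.59 and 10.48 in BY haploids, a difference of -0.74 ± 0.16 (adjusted p = 0.0018). HSP30, a plasma membrane protein that restrains the proton pump Pma1, differed by -0.61 ± 0.12 (adjusted p = 0.00069). Its levels were low, at 5.48 to 5.78 in RM haploids and 6.23 to 6.31 in BY haploids. STE2, an a-specific gene, was at 6.01 to 6.14 in BY haploids, which are of type alpha. The HSP30 signal may thus lie near the floor, and its difference is uncertain.

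The small heat shock proteins, which bind unfolding proteins without using ATP, went in opposite directions. HSP26 was at 6.93, 6.81 and 7.41 in RM haploids, against 8.26, 8.32 and 8.56 in BY haploids, a difference of -1.33 ± 0.45 (adjusted p = 0.0427). HSP42 was at 9.53, 8.71 and 9.75 in RM haploids, against 8.39, 8.67 and 8.57 in BY haploids, a difference of 0.79 ± 0.23 (adjusted p = 0.0161). The second RM array was barely above BY for HSP42.

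In the ER, KAR2, the Hsp70 of that compartment, was at 12.85, 13.16 and 13.03 in RM haploids, against 12.36, 12.10 and 12.19 in BY haploids. The difference of 0.80 ± 0.14 (adjusted p = 0.000175) is 1.74-fold. Of its partners among the 38 genes, LHS1 and JEM1 were higher. LHS1, its nucleotide exchange factor, was at 9.0, 8.73 and 9.12 in RM haploids, against 8.51, 8.35 and 8.22 in BY haploids, a difference of 0.59 ± 0.17. JEM1, a J protein of the ER, differed by 0.60 ± 0.16. ERO1, the oxidase that supplies disulfide bonds, was at 9.40, 9.51 and 9.52 in RM haploids, against 8.80, 8.84 and 8.73 in BY haploids, a difference of 0.69 ± 0.22 (adjusted p = 0.031). PDI1 and EUG1, which pass such bonds on to other proteins, differed by 0.25 ± 0.14 and 0.03 ± 0.17 and did not pass. Of the 6 mitochondrial genes only SSC1, the matrix Hsp70 that pulls proteins in, passed: it was at 10.63, 10.82 and 10.68 in RM haploids, against 11.24, 10.93 and 11.34 in BY haploids, a difference of -0.46 ± 0.11 (adjusted p = 0.00545). Among genes that did not pass, the differences ran down to -0.59 ± 0.22 for CNS1, an essential Hsp90 cochaperone (adjusted p = 0.0706), and up to 0.39 ± 0.35 for SSE2, an Hsp110 exchange factor.

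Leaving out 1 of the 24 fitted arrays ended the call of HSP26 for 14 arrays (up to an adjusted p of 0.124, with RM haploid replicate 2 left out), of ERO1 for 6 and of HSP42 and LHS1 for 3 each (0.0853 without BY haploid replicate 3, 0.111 and 0.0742 without RM haploid replicate 3) and of JEM1 for 2 (0.0751 without BY haploid replicate 3). The count of called genes was 7 without RM haploid replicate 1 and 7 without RM haploid replicate 3. Shares of all genes are not given for fits with arrays left out, here or below. Such counts can therefore not be read as particular to chaperones. The call of SSC1 ended after quantile normalization (adjusted p = 0.0583) and in a fit on the compared groups alone (0.0747), which also ended that of HSP42 (0.0604), and that of ERO1 ended after centring on array medians (0.0573). Without hybrid array 1, whose values enter the shared estimate of the spread, HSP104 passed at -0.50 (adjusted p = 0.00683). In that fit the limma adjusted p was 0.00149 for HSP26, 0.000456 for ERO1 and 0.00904 for HSP42. It was 0.00739 for LHS1, 0.00241 for JEM1 and 0.00383 for SSC1.

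**Figure D2:**
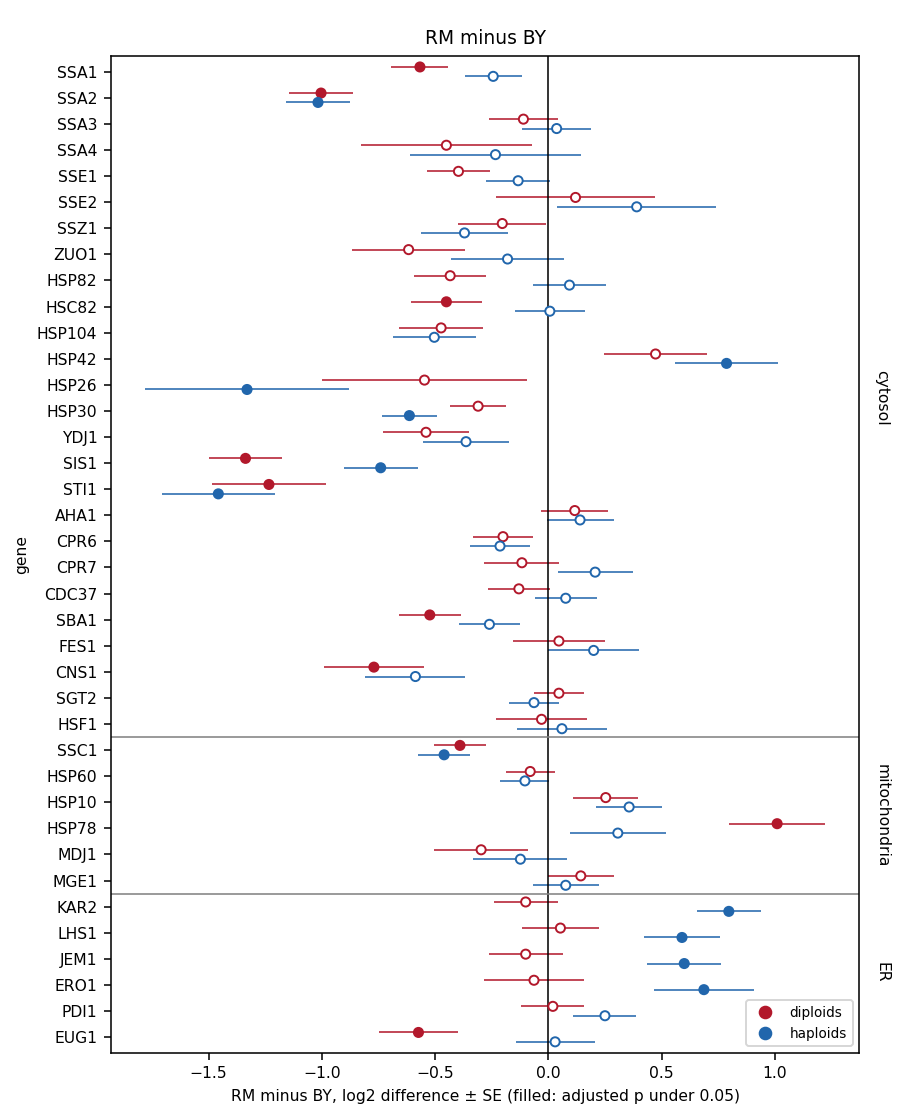
RM minus BY difference (log2, point ± SE from limma) for each chaperone gene in diploids and haploids, with filled points for adjusted p under 0.05. SSA2, SIS1, STI1 and SSC1 are lower in RM at both ploidies, and KAR2, LHS1, JEM1 and ERO1 are higher in RM in haploids and near 0 in diploids.

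Diploid RM and BY cells were compared next. Of the 38 genes 1 was higher in RM diploids and 9 were lower, against 9.83% and 8.45% of all genes. The median difference was -0.20, against 0.00 over all genes, and 28 of the 38 differences were negative. The lower genes were mostly Hsp70 and Hsp90 chaperones of the cytosol and their cochaperones, with 7 of 26 cytosolic genes.

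SIS1 was at 9.33, 9.48 and 9.16 in RM diploids, against 10.66, 10.41 and 10.91 in BY diploids, a difference of -1.34 ± 0.16 (adjusted p = 1.2e-06). STI1 was at 9.90, 9.76 and 9.90 in RM diploids, against 11.11, 11.02 and 11.13 in BY diploids (-1.23 ± 0.25). SSA2 was at 13.06, 13.00 and 13.07 in RM diploids, against 14.04, 14.02 and 14.08 in BY diploids (-1.0 ± 0.14). For each of these 3 genes every RM array was below every BY array of the same ploidy. CNS1 was at 6.92, 7.15 and 7.40 in RM diploids, against 7.84, 7.87 and 8.07 in BY diploids (-0.77 ± 0.22, adjusted p = 0.0164). SSA1, another Hsp70 made without stress, was at 13.62, 13.53 and 13.56 in RM diploids, against 14.21, 14.12 and 14.08 in BY diploids (-0.57 ± 0.13). SBA1, the yeast p23 that slows the Hsp90 cycle, was at 10.82, 10.35 and 10.73 in RM diploids, against 11.15, 11.07 and 11.25 in BY diploids (-0.52 ± 0.14). HSC82, the Hsp90 made without stress, differed by -0.45 ± 0.16 (adjusted p = 0.0495).

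The gene higher in RM diploids was HSP78, the disaggregase of the mitochondrial matrix. HSP78 was at 9.53, 9.50 and 9.59 in RM diploids, against 8.49, 8.53 and 8.57 in BY diploids, a difference of 1.01 ± 0.21 (adjusted p = 0.00126). SSC1 was at 11.03, 10.87 and 10.95 in RM diploids, against 11.38, 11.19 and 11.45 in BY diploids (-0.39 ± 0.11). In the ER only EUG1 passed, at 7.77, 8.03 and 8.02 in RM diploids, against 8.44, 8.54 and 8.56 in BY diploids (-0.57 ± 0.17). KAR2 differed by -0.10 ± 0.14. Among genes that did not pass, ZUO1, the J protein of the ribosome-associated complex, was the lowest at -0.62 ± 0.25 (adjusted p = 0.101), and HSP42 the highest at 0.47 ± 0.23 (adjusted p = 0.178).

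Leaving out 1 array ended the call of HSC82 for 15 arrays (highest adjusted p 0.274 without RM diploid replicate 1), of SSC1 and EUG1 for 3 each (0.103 without BY diploid replicate 3 and 0.116 without RM diploid replicate 1), of CNS1 for 2 (0.0916 without RM diploid replicate 1) and of SBA1 for 1 (0.0757 without RM diploid replicate 2). The count fell to 6 without BY diploid replicate 3. Without hybrid array 1, whose values enter the shared estimate of the spread, the count was 14, with no share of all genes to set beside it. HSP82 (-0.43, adjusted p = 0.00603), HSP104 (-0.47, 0.0117), SSE1 (-0.40, 0.0325) and ZUO1 (0.0484) then passed as lower in RM diploids too. The call of HSC82 ended after quantile normalization and after centring on array medians (adjusted p = 0.0794 and 0.0818), and that of SSC1 after such centring (0.0628).

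Some closely related chaperones share probe sets, and these give other values for the same families. A pair of probe sets annotated to both SSA1 and SSA2 gave -0.20 ± 0.13 and -0.10 ± 0.12 in haploids and -0.58 ± 0.13 and -0.45 ± 0.12 in diploids (RM minus BY), smaller than the difference of the SSA2 probe set. The probe set annotated to both SSB2 and SSB1 differed by 0.01 ± 0.13 in haploids and -0.04 ± 0.13 in diploids. One annotated to HSP82 and HSC82 gave 0.09 ± 0.13 and -0.29 ± 0.13. The SSA1 and HSP82 probe sets used here carry identifiers of a kind that can match relatives, so these 2 genes are uncertain.

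Whether the strain difference changed with ploidy was then tested, though in haploids strain cannot be told apart from mating type. The strain difference in diploids minus that in haploids was -0.90 ± 0.20 for KAR2 (adjusted p = 0.015), the only one of the 38 genes that passed, as 0.76% of all genes did upward and 1.06% downward. The difference was 0.80 in haploids and -0.10 in diploids. All 6 ER genes had a negative value, 5 of which did not pass, with a median of -0.65, against -0.07 over all genes. ERO1 had -0.75 ± 0.31 (adjusted p = 0.336, and 0.0318 without hybrid array 1), JEM1 -0.70 ± 0.23 and EUG1 -0.60 ± 0.25. The largest positive value was 0.78 ± 0.64 for HSP26 (adjusted p = 0.798). The KAR2 call ended at an adjusted p of 0.050 without BY diploid replicate 3, and the count was 2 without hybrid array 1.

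Ploidy was compared within each strain, where it cannot be told apart from mating type. The labels do not say whether haploids and diploids also differ in other alleles. In BY, 0 of the 38 genes passed by limma, 5 had an unadjusted p under 0.05, and 2.44% of all genes rose and 1.06% fell in diploids. The lowest value was that of HSP26, at 7.06, 7.09 and 7.05 in BY diploids, against 8.26, 8.32 and 8.56 in BY haploids. No arrays overlapped, but the difference of -1.31 ± 0.45 had an adjusted p of 0.101. It was 0.00352 without hybrid array 1, which has a high HSP26 value and enters the shared estimate of the spread. The count was 1 without that array and 1 without BY haploid replicate 2. HSP42 had the highest value, 0.47 ± 0.23 (adjusted p = 0.329).

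In RM, HSP78 rose in diploids, and KAR2 and EUG1 fell. These 3 of 38 genes stood against 4.92% of all genes that rose and 2.72% that fell. HSP78 was at 9.53, 9.50 and 9.59 in RM diploids, against 8.38, 8.44 and 8.67 in RM haploids, a rise of 1.04 ± 0.21 (adjusted p = 0.00181). KAR2 was at 12.41, 12.48 and 12.60 in RM diploids, against 12.85, 13.16 and 13.03 in RM haploids (-0.52 ± 0.14, adjusted p = 0.0209). EUG1 was at 7.77, 8.03 and 8.02 in RM diploids, against 8.32, 8.52 and 8.71 in RM haploids (-0.58 ± 0.17, adjusted p = 0.0415). All 6 ER genes had negative values. ERO1 at -0.63 ± 0.13 (adjusted p = 0.00251) and JEM1 at -0.43 ± 0.14 (adjusted p = 0.0472) passed without hybrid array 1, and ERO1 had an adjusted p of 0.0872 with it. HSP10, the lid of the mitochondrial chaperonin, had the largest positive value that did not pass, 0.32 ± 0.14.

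Calls depended on single arrays here as well. That of KAR2 ended for 4 arrays (up to an adjusted p of 0.121, with RM haploid replicate 2 left out) and that of EUG1 for 13 (0.17 without RM diploid replicate 1). The count was 1 without RM haploid replicate 2, without RM haploid replicate 3, without RM diploid replicate 1 and without RM diploid replicate 2, and 5 without hybrid array 1. A fit on both compared groups alone ended the calls of KAR2 and EUG1 (adjusted p = 0.0625 and 0.0619), and quantile normalization that of KAR2 (0.0637).

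**Figure D3:**
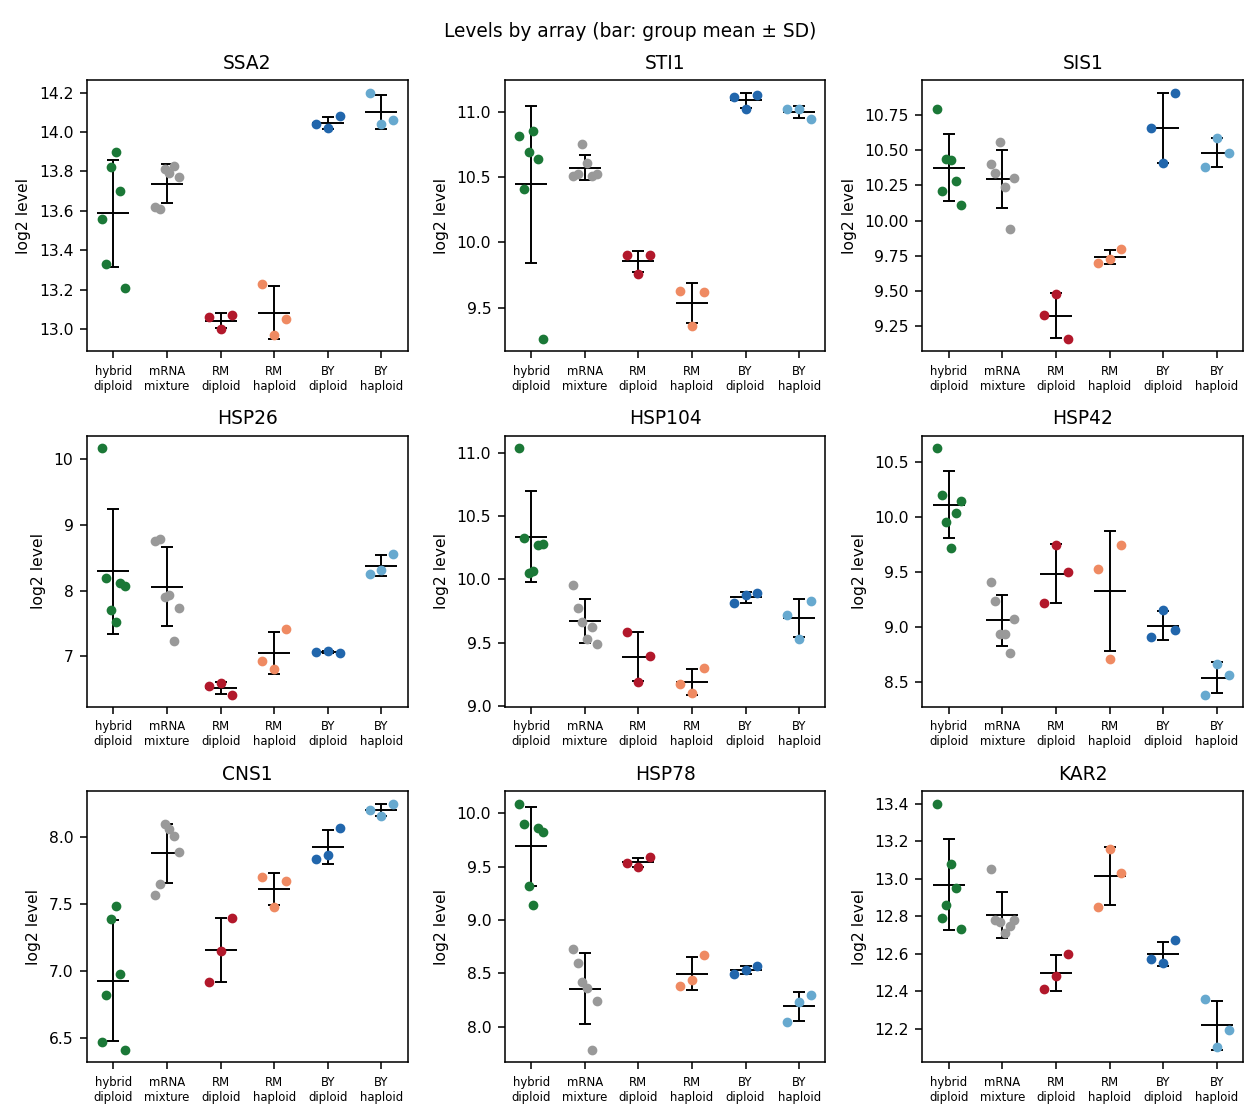
Log2 level of 9 chaperone genes on each array of the 6 fitted groups (points), with the group mean ± SD as bars. HSP104 and HSP42 lie highest in the hybrids, HSP78 lies high in hybrids and RM diploids, CNS1 lies lowest in the hybrids, and hybrid array 6 has the low STI1 value of 9.26.

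The hybrids were compared with the midparent, the mean of the linear levels of RM diploids and BY diploids. Here 12 of the 38 genes were higher in the hybrids and 1 was lower, against 9.05% higher and 12.8% lower over all genes. The median difference was 0.18, against -0.06 over all genes. The higher ones were 4 of 6 mitochondrial genes (SSC1, HSP60, HSP10 and HSP78), 3 of 6 ER genes (KAR2, LHS1 and ERO1) and 5 of 26 cytosolic genes (HSP26, HSP42, HSP104, SSA1 and SBA1). After quantile normalization of the arrays 9 were higher and 4 lower, and HSP10, SBA1 and LHS1 did not pass (adjusted p = 0.14, 0.163 and 0.0973).

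HSP26 had the largest difference. Its lowest, median and highest hybrid values were 7.53, 8.10 and 10.17, against 6.55, 6.59 and 6.42 in RM diploids and 7.06, 7.09 and 7.05 in BY diploids. Every hybrid array was above every array of both parents, by 1.48 ± 0.32 over the midparent (n = 6 hybrid arrays, adjusted p = 0.00347) and 1.10 ± 0.21 without hybrid array 1. HSP42 had lowest, median and highest values of 9.72, 10.10 and 10.63 in hybrids, against 9.22, 9.75 and 9.50 in RM diploids and 8.91, 9.16 and 8.98 in BY diploids (0.84 ± 0.16). HSP104, the cytosolic disaggregase, had 10.05, 10.28 and 11.04 in hybrids, against 9.58, 9.19 and 9.39 in RM diploids and 9.81, 9.88 and 9.89 in BY diploids (0.70 ± 0.13, adjusted p = 0.00126). HSP104 was above both parents on every hybrid array, and HSP42 overlapped RM.

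SSA1 had lowest, median and highest values of 14.26, 14.36 and 14.67 in hybrids, above 13.62 on any RM diploid and 14.21 on any BY diploid array (0.51 ± 0.09). SBA1 had 11.07, 11.23 and 11.41 in hybrids, and its difference was 0.31 ± 0.10. CNS1 was the gene lower in hybrids. It had 6.41, 6.90 and 7.49 there, against 6.92, 7.15 and 7.40 in RM diploids and 7.84, 7.87 and 8.07 in BY diploids (-0.67 ± 0.16, adjusted p = 0.00619), so hybrids overlapped RM and lay below BY.

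All 6 mitochondrial genes had positive differences. SSC1 had 11.58, 11.66 and 11.85 in hybrids, above every array of the parents, whose values are given above (0.51 ± 0.08, adjusted p = 0.00026). HSP60, the chaperonin of the matrix, had 12.60, 12.69 and 12.76 in hybrids, against 12.21, 12.24 and 12.41 in RM diploids and 12.37, 12.38 and 12.35 in BY diploids (0.36 ± 0.08). HSP10, its lid, had 11.19, 11.40 and 11.52 in hybrids, against 10.85, 11.39 and 11.25 in RM diploids and 10.98, 10.86 and 10.89 in BY diploids (0.33 ± 0.10). HSP78 had 9.14, 9.85 and 10.09 in hybrids, a range that holds the RM diploid values near 9.5 and lies above the BY diploid values (0.57 ± 0.15). In the ER, KAR2 had 12.73, 12.91 and 13.40 in hybrids, above 12.60 on any RM diploid and 12.67 on any BY diploid array (0.42 ± 0.10, adjusted p = 0.00612). LHS1 had 8.89, 9.09 and 9.53 in hybrids, against 8.88, 8.78 and 8.76 in RM diploids and 8.85, 8.76 and 8.65 in BY diploids (0.35 ± 0.12). ERO1 had 9.12, 9.27 and 10.36 in hybrids, against 8.72, 8.85 and 8.98 in RM diploids and 8.97, 8.95 and 8.82 in BY diploids (0.54 ± 0.16). In all, 8 of the 12 higher genes had every hybrid array above every array of both parents. The matching share among all genes was not counted, so this count cannot be called high or low.

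The largest differences that did not pass were SSE2 at 0.60 ± 0.25 and ZUO1 at -0.50 ± 0.18 (adjusted p = 0.0968 and 0.0558). The probe set shared by SSB2 and SSB1 was lower in hybrids by -0.35 ± 0.09 (adjusted p = 0.0108). Hybrid arrays had 12.57 to 13.27 for it. Those of RM diploids had 13.12 to 13.42, and those of BY diploids 13.29 to 13.34. For the genes with the largest strain differences the test was not passed: SSA2 was at -0.04 ± 0.10 from the midparent, STI1 at -0.15 ± 0.18 and SIS1 at 0.24 ± 0.12. Leaving out 1 array ended the call of LHS1 for 17 arrays (highest adjusted p 0.132 without hybrid diploid replicate 1) and of HSP10 and SBA1 for 5 each (0.102 without RM diploid replicate 1 and 0.0813 without BY diploid replicate 2).

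**Figure D4:**
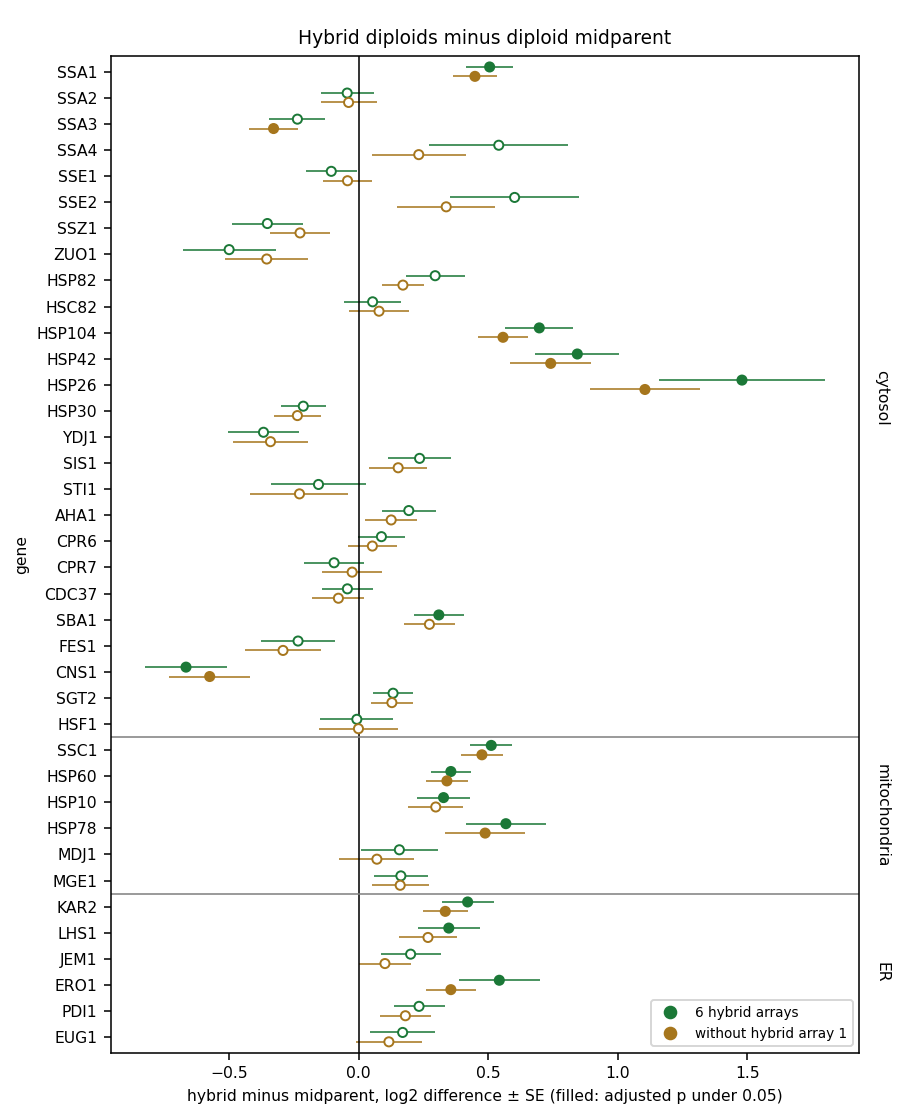
Hybrid minus midparent difference (log2, point ± SE from limma) for each chaperone gene with all 6 hybrid arrays and without hybrid array 1, with filled points for adjusted p under 0.05. The difference of HSP26 is 1.48 with and 1.10 without that array, and those of LHS1, HSP10 and SBA1 no longer pass without it.

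The hybrid arrays themselves differed. Array 1 was the highest of the 6 hybrid arrays for 22 of the 38 genes, against 27.1% of all genes, and the lowest for 4, against 25.1%. Array 6 was the lowest for 16 of the 38 genes, near its share of 37.4% over all genes. It also had the lowest mean correlation with the other hybrid arrays, 0.963. HSP26 was at 10.17 on array 1 and at 7.53 to 8.2 on the other 5. SSA4, an Hsp70 made on heating, was at 9.53 and at 7.5 to 7.83, SSE2 at 10.55 and at 8.50 to 9.36, and ERO1 at 10.36 and at 9.12 to 9.31. The inducible Hsp90 gene HSP82 was at 11.14 and at 10.24 to 10.60. The 4 genes lowest on array 1 were SSE1, the main Hsp110, with 10.83 against 10.92 to 11.46 on the others, SSZ1 (9.53 against 9.93 to 10.63), ZUO1 (10.08 against 10.43 to 11.36) and CPR7, an Hsp90 cyclophilin (7.67 against 7.82 to 8.25). SSZ1 and ZUO1 form the ribosome-associated complex, which helps new chains to fold. Among 14 measured heat-induced genes of the general stress response array 1 was the highest for 12, and 9 of these 14 were above the midparent over all hybrid arrays, against 9.05% of all genes. The part of such stress expression in the hybrid differences was not tested. HSF1 itself was at 8.11 on array 1 and at 7.99 to 8.27 on the others. Without array 1, 9 genes were higher and 2 lower than the midparent: LHS1, HSP10 and SBA1 no longer passed, and SSA3, an Hsp70 of starving or stressed cells, passed as lower (-0.33 ± 0.09). The shares of all genes in that fit are not given, so these counts cannot be called high or low. The difference of ERO1 was 0.36 without array 1.

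The last comparisons involved the mRNA mixtures. The mixtures expressed haploid mating genes and the hybrids did not, so an effect of ploidy and one of combining the genomes in a cell cannot be told apart here. Of the 38 genes 9 were higher in hybrids than in mixtures and 2 were lower, against 22% and 10.7% of all genes. Of the 6 mitochondrial genes 5 were higher. HSP78 had lowest, median and highest values of 9.14, 9.85 and 10.09 in hybrids, against 7.78, 8.39 and 8.73 in mixtures, a difference of 1.34 ± 0.15 (n = 6 arrays each, adjusted p = 2.3e-07). HSP42 had 9.72, 10.10 and 10.63 in hybrids, against 8.77, 9.01 and 9.41 in mixtures (1.05 ± 0.16). Neither gene overlapped between these groups.

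HSP104 differed by 0.67 ± 0.13, HSP10 by 0.63 ± 0.10 and HSP60 by 0.53 ± 0.08. SSC1 and MGE1, its nucleotide exchange factor, both differed by 0.37 (SE 0.08 and 0.10), HSP82 by 0.36 ± 0.11 (adjusted p = 0.0173) and SSA1 by 0.35 ± 0.09. CNS1 had 6.41, 6.90 and 7.49 in hybrids, against 7.57, 7.95 and 8.10 in mixtures (-0.95 ± 0.16, adjusted p = 4.7e-05). SSA3 differed by -0.29 ± 0.11 (adjusted p = 0.0458), a call that ended with any 1 of 17 arrays left out (highest 0.0986 without hybrid diploid replicate 5). Without hybrid array 1 the SSA3 difference was -0.39 ± 0.09 (adjusted p = 0.00387). On that array SSA3 was at 7.3, against 6.67 to 6.9 on the other hybrid arrays. The SSA3 call also ended after quantile normalization, after median centring and in a fit on both groups alone (0.0767, 0.0752 and 0.0851). The last ended the call of HSP82 too (0.0647). No ER gene passed, with KAR2 at 0.16. HSP26 had 7.24, 7.92 and 8.78 in mixtures and differed by 0.24, and by -0.14 without hybrid array 1, so that its direction turned. Neither value passed. The extremes that did not pass were SSA4 at 0.54 ± 0.27 and SSZ1 at -0.36 ± 0.14.

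The mixtures in turn were set against the mean of the linear levels of RM and BY haploids. Of the 38 genes 1 was higher in mixtures and 0 were lower, against 1.04% and 3.47% of all genes, and 2 had an unadjusted p under 0.05. The higher gene was SSC1, with 11.20, 11.29 and 11.42 in mixtures, against 10.63, 10.82 and 10.68 in RM haploids and 11.24, 10.93 and 11.34 in BY haploids (0.34 ± 0.08, adjusted p = 0.0138, and 0.0557 without BY haploid replicate 2). This call also ended after quantile normalization (0.0709) and in a fit on the compared groups alone (0.0921). The other differences lay between -0.18 ± 0.14 for FES1, an exchange factor of cytosolic Hsp70, and 0.32 ± 0.12 for LHS1 (adjusted p = 0.105). The count was 3 without mixture array 5, on which MDJ1 and HSF1 were high, and 0 without BY haploid replicate 2.

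The segregants stayed out of the tests, since each array may be another genotype. Both haploid segregant arrays lay within the range of the 6 parental haploid arrays for 14 of the 38 genes. Both lay above it for SSC1 and SSE1 (11.47 and 11.39, and 11.55 and 11.57). Both lay below it for HSF1, at 8.02 and 8.06. SSA2 was at 13.83 and 14.18 in the segregants, nearer to BY haploids than to RM haploids. STI1 was at 10.42 and 9.85, between the parents. The ER genes differed between the segregant arrays: KAR2 was at 13.20 and 12.40, ERO1 at 9.76 and 8.65 and EUG1 at 9.29 and 8.28, and the first array was the higher for all 6. For the segregant hybrids both arrays lay within the range of the hybrid, RM diploid and BY diploid arrays for 35 of 38 genes. SGT2, which hands tail-anchored proteins to the ER insertion pathway, was below that range on both arrays, at 10.47 and 10.65. The ranges for the haploid segregants and the segregant hybrids are not alike. That for the segregant hybrids rests on more arrays and includes the outlying hybrid array described above. For HSP26 it ran from 6.42 to 10.17, against 6.81 to 8.56 over the parental haploids. The matching shares among all genes were not counted. The counts of 14 and 35 can therefore not be compared with each other or called high or low.

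Over the 8 comparisons 23 of the 38 genes passed at least once and 17 passed in 2 or more. The 15 that passed in none included HSF1, with differences no larger than -0.21, the Hsp110 gene SSE1, and the J proteins YDJ1 and MDJ1. They also included the Hsp90 cochaperones AHA1, CPR6, CPR7 and CDC37, the disulfide isomerase PDI1, and FES1, SGT2, SSA4, SSE2, SSZ1 and ZUO1. Their largest difference in any comparison was -0.62, and it was that of ZUO1 between diploid strains. Not passing does not show that these genes were at equal levels. The shares of all genes passing at least once or in 2 or more comparisons were not counted, and the comparisons share groups. The counts of 23 and 17 can therefore not be called high or low.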

How the data were processed

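The deposited table holds 1 log2 level per probe set and array. The scale was judged from its range up to 14.67, and the authors' summarising and scaling steps are not given in the sources used here. Of 9335 probe sets, 60 controls and 1 at 0 on every array were left out. By the platform annotation 6504 probe sets had 1 gene, 328 had several and 2442 had none. A gene was represented by its highest-mean single-gene probe set. Group means were fitted on 24 arrays with lmFit and eBayes of limma 3.58.1 under R 4.3.3 (two-sided, Benjamini-Hochberg over 9274 probe sets, threshold 0.05), and the 4 segregant arrays stayed out. Midparent differences have a delta-method SE with the moderated variance. The fit was tested on simulated data. The number of arrays limits the precision. No replicate pair shared over 3% of values. The text names every member that passed and the extremes that did not. The members, lists and rules were chosen with earlier results of these data known. Alternatives were other scalings, a dim filter, a variance trend, array weights, a replicate block, fits on compared groups, log2 midparents and leaving out arrays. Figures used Python 3.11.15 and matplotlib 3.10.9.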

Additional observations from a re-analysis of the deposited data

Results flagged for a closer look

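In the hybrid and mixture groups of 6 arrays, a level far from the other 5 was looked for in all 38 genes, and 12 of 76 such checks found one. About 1 in 20 does so by chance, but genes on the same array can move together, so the checks are not independent. Hybrid array 1 held 8 of the 12 levels found, all high: SSA1 at 14.67, SSA3 at 7.3, SSA4 at 9.53, SSC1 at 11.85, HSP104 at 11.04, HSP26 at 10.17, JEM1 at 9.06 and ERO1 at 10.36. STI1 was low on hybrid array 6, at 9.26. Among the mixtures MDJ1 and HSF1 were high on array 5, at 8.96 and 8.91, and KAR2 on array 1, at 13.05. The KAR2 strain difference changed with ploidy, by -0.90 (diploids minus haploids), as tested by the interaction. Strain cannot be told apart from mating type in the haploids.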

How the results depend on the processing

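Of 50 called differences of single genes, 32 passed with each of the 24 arrays left out in turn and 30 also passed under every other setting run, and 0 of the 66 differences that passed or were the extremes among those that did not changed sign. Outside these 66, HSP26 in hybrids against mixtures turned to -0.14 without hybrid array 1. Counts of called genes, leaving out 1 array at a time, ranged from 7 to 12 (RM against BY haploids), 6 to 14 (RM against BY diploids), 0 to 2 (strain by ploidy), 0 to 1 (BY diploids against haploids), 1 to 5 (RM diploids against haploids), 10 to 16 (hybrids against midparent), 10 to 12 (hybrids against mixtures) and 0 to 3 (mixtures against midparent). Array weights, which count variable arrays less, raised the count to 20 for the diploid strains, 6 for strain by ploidy, 5 and 11 for ploidy in BY and RM, 28 for hybrids against midparent, 18 for hybrids against mixtures and 4 for mixtures. Fits on the compared groups alone gave 17 for the diploid strains, 3 for strain by ploidy, 2 for ploidy in BY and 0 for mixtures. Quantile normalization gave 1 for ploidy in BY and 0 for mixtures. Without hybrid array 1 and mixture array 5 together, chosen after seeing the data, counts were 4 for strain by ploidy, 3 and 6 for ploidy in BY and RM, and 3 for mixtures. The cause of these shifts was not tested. Shares of all genes called under these settings are not given here, so these counts cannot be read as particular to chaperones. Other counts stayed within 1.5 times. Centring arrays on their medians moved the all-gene median of BY diploids minus haploids by 0.10, to 0.03. The replicate numbers gave no clear pairing across all groups. Of 48 same-numbered pairs 19 had a correlation over 0.1, and 5 of 24 arrays correlated best with their own number. Hybrid and mixture arrays of the same number had correlations of 0.46, 0.21, 0.22 and 0.24 for numbers 1 to 4. For numbers 5 and 6 the correlations were -0.245 and -0.11. Whether such arrays were handled together was not tested. With a replicate block the count for mixtures was 2, and no other count moved by over 1.5 times. A second probe set per gene could not be tried, as no gene had one. Signal over background is not known, which limits statements on dim probe sets such as HSP30.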

Other observations

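Other folding genes, in 8 lists with 78 of 81 genes measured, gave these values in the same fit. The cytosolic chaperonin TRiC, which folds actin and tubulin, had 1 of 8 genes called across the 8 comparisons: CCT6 was lower in RM diploids by -0.34 ± 0.12. In that comparison 8.45% of all genes were lower. The share of all genes called in any comparison was not counted, so the TRiC count cannot be called low. The nascent polypeptide-associated complex had 0 of 3 in each of them by limma, with 1 gene at an unadjusted p under 0.05 in 3 of the comparisons. Prefoldin, which hands chains to TRiC, was lower in hybrids than the midparent for 3 of 6 genes, against 12.8% of all genes, GIM5 by -0.46 ± 0.11 and YKE2 by -0.41 ± 0.13. Mitochondrial proteases and import motor genes were higher in hybrids than in mixtures for 6 of 9, against 22% of all genes, with PHB1, a prohibitin, at 0.83 ± 0.09 and PHB2 at 0.66 ± 0.10, and higher in RM diploids than RM haploids for 4 of 9, against 4.92% of all genes, with TIM44, the tether of the import motor, at 0.74 ± 0.16.

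In RM against BY haploids 2 of 14 other ER folding genes were higher and 2 lower, against 12.1% and 5.23% of all genes: HAC1, the transcription factor of the unfolded protein response, was higher by 0.56 ± 0.15, and the glucosidase genes CWH41 and ROT2 were lower by -0.61 ± 0.13 and -0.56 ± 0.13. In diploids HAC1 was again higher, by 0.73 ± 0.15, and 4 of 14 were lower, against 8.45% of all genes. SIL1, an exchange factor for KAR2, was higher in RM haploids by 0.99 ± 0.23. Among 18 other J proteins and Hsp70 partners it was 1 of 2 higher there, with 0 lower, against 12.1% and 5.23% of all genes. The count of 2 of 18 is near the share of all genes. Other ER partners of KAR2 in that list did not pass: SCJ1 was at -0.02, SEC63 at 0.13 and ERJ5 at 0.55 (adjusted p = 0.183). In hybrids 5 of the 18 were below the midparent and 1 above, against 12.8% and 9.05% of all genes. Heat-induced genes of the general stress response were higher in RM than BY haploids for 8 of 14, against 12.1% of all genes, with the catalase gene CTT1 at 3.10 ± 0.40 and DDR2 at 2.26 ± 0.47. In hybrids 9 of 14 were above the midparent and 1 below, against 9.05% and 12.8% of all genes, with CTT1 at 1.44 ± 0.31. Of 6 other Hsp90 cochaperones only PIH1 passed in any comparison, lower in RM diploids by -0.69 ± 0.16, where 8.45% of all genes were lower. This count cannot be called low either.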
